A study of Mus musculus with 34 samples.

Results

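Vmn2r3, Sprr1a, Wfdc3, Akr1b7, Tinag, Psmc3ip and Tmprss4 are 7 of the 55487 gene IDs measured by RNA-seq in mouse liver in this series. They were chosen by their deposited log2 CPM values in PiZ against WT PBS liver and in tunicamycin against DMSO liver, being almost without reads in control liver and plentiful in PiZ livers, tunicamycin livers or both. Those 2 contrasts therefore describe the genes and carry no test. The 7 symbols were found in both tables of deposited values, and a working description of all 7 as raised in PiZ and by tunicamycin held for 4 of them: Tinag, Psmc3ip and Tmprss4 were raised in PiZ and not after tunicamycin.

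The study used livers of male mice aged 3 months. The first table holds 5 libraries labelled PiZ p50KO (PiZ mice lacking p50, given PBS), 5 of PiZ mice given PBS, 6 of WT mice given TNFa by intraperitoneal injection and examined after 2 h, and 6 of WT mice given PBS. The second table, marked in the labels as another batch, holds 6 libraries of WT mice 24 h after tunicamycin and 6 of WT mice given the vehicle DMSO. PiZ mice are widely used transgenic mice that carry the human gene for the Z form of alpha-1 antitrypsin, and by their label the PiZ p50KO mice carry it too. Levels of the tables were never set against each other, since batch and experiment cannot be told apart.

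Misfolded secretory protein in the endoplasmic reticulum (ER) switches on the unfolded protein response, in which sensors of the ER membrane raise chaperones and stress transcription factors such as Atf3. Tunicamycin blocks N-glycosylation and is a classical trigger of it. The Z form of alpha-1 antitrypsin polymerizes in the ER of hepatocytes and is known for activating NF-kB, of which p50, made from Nfkb1, is a subunit; TNFa activates NF-kB from the cell surface. The 7 genes are better known from other tissues. Vmn2r3 belongs to the pheromone receptors of vomeronasal sensory neurons. Sprr1a is a precursor of the cornified envelope of squamous epithelium. Wfdc3 belongs to the whey acidic protein domain family, which includes protease inhibitors, and Tmprss4 is a serine protease anchored in the membrane. Akr1b7 is an aldo-keto reductase described in mouse adrenal and vas deferens. Tinag is a glycoprotein of kidney tubular basement membrane. Psmc3ip, also called Hop2, works with Mnd1 in the pairing of homologous chromosomes in meiosis.

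The upstream bases of 3 genes are shown because Sprr1a and Wfdc3 hold a searched motif and were high in both PiZ and tunicamycin livers. Akr1b7 was above its controls in both, though at only 1.01 CPM on average in PiZ, and holds none. Each is the 250 bases before the RefSeq start in GRCm38.p6, read 5′ to 3′ on the gene's strand: chr3:92485882-92486131 on the minus strand for Sprr1a, chr2:164743268-164743517 on the minus strand for Wfdc3, and chr6:34412112-34412361 on the plus strand for Akr1b7. Capitals mark the motif matches.
Sprr1a: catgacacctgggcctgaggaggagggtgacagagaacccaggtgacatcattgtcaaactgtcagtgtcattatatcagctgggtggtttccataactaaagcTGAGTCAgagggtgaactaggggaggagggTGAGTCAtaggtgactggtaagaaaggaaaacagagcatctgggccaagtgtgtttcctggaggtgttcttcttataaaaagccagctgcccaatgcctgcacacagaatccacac
Wfdc3: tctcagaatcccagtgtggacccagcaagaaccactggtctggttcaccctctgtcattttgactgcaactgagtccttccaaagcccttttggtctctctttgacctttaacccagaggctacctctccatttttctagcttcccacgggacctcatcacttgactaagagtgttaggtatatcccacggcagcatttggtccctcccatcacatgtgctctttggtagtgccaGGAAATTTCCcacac
Akr1b7: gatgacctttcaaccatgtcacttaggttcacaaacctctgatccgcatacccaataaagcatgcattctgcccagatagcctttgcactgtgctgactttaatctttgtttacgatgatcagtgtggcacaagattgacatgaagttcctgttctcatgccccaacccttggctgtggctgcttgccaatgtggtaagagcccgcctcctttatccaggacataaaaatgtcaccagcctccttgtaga
Sprr1a holds the AP-1 motif 2 times, 146 to 140 and 116 to 110 bases before its start, and Wfdc3 holds an NF-kB site 15 to 6 bases before its RefSeq start. That start lies inside the Wfdc3 gene as GENCODE annotates it, downstream of the GENCODE start. The window of Vmn2r3 (chr3:64287418-64287667, minus strand) likewise lies wholly inside its GENCODE gene. Of 32851 promoters of this length, 6.75% hold the AP-1 motif (TGANTCA) and 9.55% the NF-kB site. The UPRE core (TGACGTGG), the ER stress response element and the C/EBP-ATF response element (TGATGNAA) were searched on both strands as well, and are held by 0.563%, 0.113% and 3.45% of promoters. No match to any of the 5 motifs lay in the windows of Vmn2r3, Akr1b7, Tinag and Psmc3ip, which says only that these letters are not there. The matches overlap no other searched motif.

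Some libraries need naming before the results. WT PBS 2 held 10.2 M reads, of which 72.2% fell in protein-coding genes, with 32360 genes above 1 CPM (1 read per M reads of the library) and Alb, the albumin gene, at 12.22 log2 CPM. The other libraries of the first table held 35.5 to 54.0 M reads, 97.3 to 97.8% in protein-coding genes, with 11683 to 13202 genes above 1 CPM and Alb at 15.43 to 16.49 log2 CPM. All 7 genes were high in WT PBS 2, for instance 200 reads or 19.6 CPM of Vmn2r3 and 222 reads or 21.7 CPM of Psmc3ip, and so were 6 keratinocyte markers (219 CPM in sum, against at most 3.93 CPM in the other WT PBS libraries). It is left out of the values below except where it is named. Nfkb1, the gene removed in p50KO, stood at 4.51, 4.86, 3.31, 3.74 and 3.37 log2 CPM in the libraries labelled PiZ p50KO 1 to 5, at 4.62 to 5.58 log2 CPM in PiZ libraries and at 3.92 to 4.34 log2 CPM in WT PBS libraries. Libraries labelled PiZ p50KO 1 and 2 were thus above every WT PBS library in Nfkb1; a value for the whole gene does not show whether its deleted part was read. WT TNFa 4 stood at 4.77 log2 CPM of Nfkb1, itself an NF-kB target, where the other TNFa libraries had 6.57 to 6.95. Over 13285 genes the libraries labelled PiZ p50KO 1 and 2 also lay nearer to WT PBS than to PiZ. Their root mean square distances were 0.58 and 0.67 log2 from the WT PBS mean, and 1.10 and 1.12 from the PiZ mean. Those labelled PiZ p50KO 4 and 5 lay nearer to the PiZ mean (0.66 and 0.66) than to the WT PBS mean (1.06 and 0.97). The one labelled PiZ p50KO 3 was about equally far from both (0.97 from PiZ, 0.96 from WT PBS). The libraries are separate samples in the labels, which name no animals, so p-values measure the spread between libraries.

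In PiZ liver every one of the 7 genes was above its range in WT PBS liver, by 3.18 to 10.18 in mean log2 CPM. Of all 13285 genes tested, 31.4% did not overlap and were higher in PiZ, 4.36% did not overlap and were lower, and the choice of the 7 genes fixes their count, so nothing is read from it. The median of all genes tested was 0.40 log2 higher in PiZ, below each of these differences. In bulk liver, more cells that express a gene and more RNA per cell cannot be told apart.

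Vmn2r3 had 392, 696, 860, 469 and 537 reads in PiZ libraries 1 to 5, against no read in WT PBS libraries 1, 3, 4, 5 and 6. Its mean was 13.0 CPM in PiZ, 1010-fold above a bound of 3 reads over the WT PBS group of 232.4 M reads. That bound takes reads as independent, which they were not, so the ratio is not a firm lower limit. The gene lies at chr3:64257215-64289709 on the minus strand (GRCm38). The groups did not overlap, and each of these WT PBS libraries was at the table's floor of -6.52 log2 CPM, which stands for no read. Vmn2r3 shares 3.09% of its 50-base stretches with other genes, mostly of its own family. Its nearest coding neighbours Vmn2r2 and Vmn2r4 had 6 and 3 reads over all PiZ libraries, against 0 and 1 over the WT PBS libraries.

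Sprr1a (chr3:92483952-92485895, minus strand) had 759, 1242, 1455, 652 and 1386 reads in PiZ libraries 1 to 5, against 12, 4, 6, 2 and 2 reads in WT PBS libraries 1, 3, 4, 5 and 6. The groups did not overlap, and the means were 23.9 CPM in PiZ and 0.109 CPM in WT PBS, a ratio of 220. Its neighbours in the epidermal gene cluster, Sprr3 and Sprr4, had 1 and 0 reads over all PiZ libraries. Wfdc3 (chr2:164731180-164745931, minus strand) had 176, 287, 316, 125 and 393 reads in the PiZ libraries, against 0, 4, 0, 2 and 0 reads in the WT PBS libraries. Its means were 5.58 CPM in PiZ and 0.0271 CPM in WT PBS, and 3 of the 5 WT PBS libraries were at the table's floor. Dnttip1, which lies on the other strand 52 bases from the GENCODE start of Wfdc3, averaged 3.04 log2 CPM in PiZ and 2.45 log2 CPM in WT PBS.

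Tinag (chr9:76951693-77045794, minus strand) had 380, 362, 404, 280 and 406 reads in PiZ libraries 1 to 5, against 2, 0, 0, 6 and 2 reads in the WT PBS libraries. Scaled to depth, its PiZ libraries were nearly level, from 7.88 to 8.31 CPM, the narrowest spread of the 7 genes. Psmc3ip (chr11:101091823-101095436, minus strand) had 248, 278, 319, 217 and 219 reads in PiZ, against 22, 10, 12, 10 and 24 reads in WT PBS. It was the least silent of the 7 in WT PBS liver, with 0.338 ± 0.152 CPM there and 5.69 ± 0.863 CPM in PiZ (SD, n = 5 each). It overlaps Mlx on the other strand, with which it shares 17.6% of its 50-base stretches; whether counting used strand is not given in the sources used here. Mlx itself averaged 4.88 log2 CPM in PiZ and 4.65 log2 CPM in WT PBS, a difference of 0.23.

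Tmprss4 (chr9:45172726-45204092, minus strand) had 493, 570, 782, 128 and 754 reads in PiZ libraries 1 to 5, against 5, 16, 12, 8 and 10 reads in WT PBS. PiZ 4 was low among the PiZ libraries at 3.61 CPM, where the others had 10.7 to 16.1 CPM. The antisense gene Gm17099, which covers 11.9% of the 50-base stretches of Tmprss4, had no read in either group. Akr1b7 (chr6:34412334-34423142, plus strand) was the smallest of the 7 in PiZ, with 30, 68, 51, 27 and 57 reads against 10, 6, 7, 13 and 0 reads in WT PBS. Its means were 1.01 ± 0.327 CPM in PiZ and 0.149 ± 0.0932 CPM in WT PBS (SD, n = 5 each), a ratio of 6.82. It shares 15.8% of its 50-base stretches with other genes, chiefly the overlapping pseudogene Gm13857, which had 5 reads over the PiZ libraries and 0 over the WT PBS libraries.

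**Figure D1:**
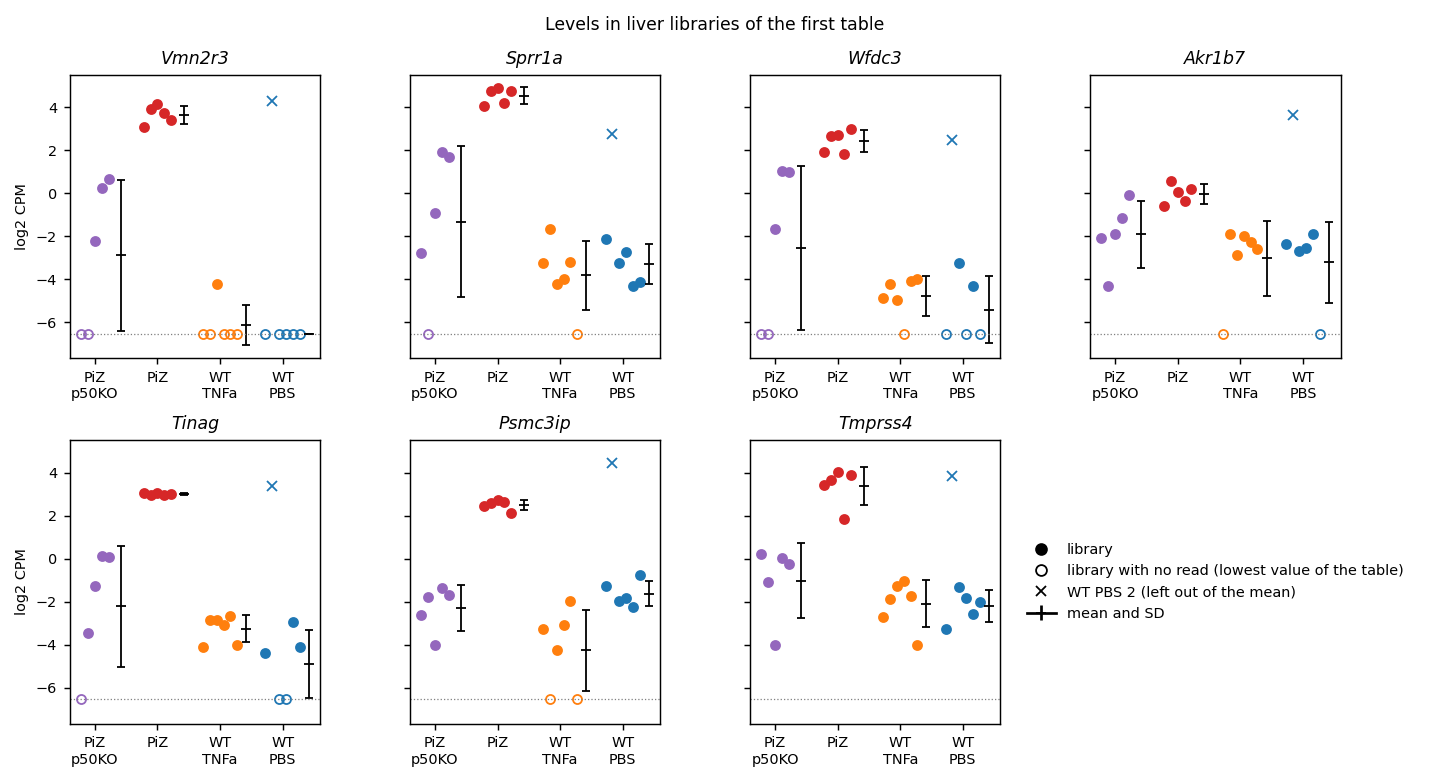
Level of each gene in each library of the first table, in log2 CPM, for PiZ p50KO, PiZ, WT TNFa and WT PBS, with mean and SD beside each group; open circles are libraries with no read, on the dotted line at -6.52, and the cross is WT PBS 2. With the cross left out, PiZ libraries stand above the other groups in 6 panels, Tinag with the narrowest spread, while the 5 PiZ p50KO libraries spread widely and reach the PiZ range for Akr1b7.

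Per kb of exon, Sprr1a was the most abundant of the 7 in PiZ at 29.6 CPM per kb on average, followed by Tinag at 4.66, Tmprss4 at 4.46, Psmc3ip at 3.13, Wfdc3 at 2.21, Akr1b7 at 0.792 and Vmn2r3 at 0.750. Sprr1a stood apart from the rest in every PiZ library, with no less than 20.4 CPM per kb. Ranges of neighbours in that order overlapped for Tinag and Tmprss4, for Tmprss4 and Psmc3ip, for Psmc3ip and Wfdc3, and for Akr1b7 and Vmn2r3. The annotated exons of Vmn2r3 add up to 17411 bases, so its value per kb is low for its reads.

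Most of the 7 genes were lower in the libraries labelled PiZ p50KO than in PiZ. Of the 6 that reached the filter on low values (above 1 CPM in at least 5 libraries), all 6 were called lower in PiZ p50KO than in PiZ, where 21.6% of all genes tested were called lower and 3.36% higher. For these 6 genes the groups did not overlap, as held for 11.9% of all genes tested in that direction and 1.64% in the other. PiZ libraries took part in choosing the genes and carried them past the filter, which favours lower values in the other group. The count and the p-values of single genes in this contrast are therefore descriptions of size against spread. Psmc3ip had only its 5 PiZ libraries above the filter and was not tested without any 1 of them. The median of all genes tested was 0.22 log2 lower in PiZ p50KO.

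Psmc3ip was low in all 5 libraries labelled PiZ p50KO, which had 8, 14, 2, 20 and 14 reads against the 217 to 319 reads of PiZ. Its log2 fold change was -4.78 ± 0.72 (SE, n = 5 each, limma adjusted p = 0.000109). Tmprss4 had 60, 23, 2, 52 and 39 reads in the libraries labelled PiZ p50KO, against 128 to 782 reads in PiZ, and changed by -4.39 ± 0.69 log2 (SE, limma adjusted p = 0.000153). The libraries labelled PiZ p50KO 4 and 5, which are nearer to PiZ over all genes, held 6.71 and 5.30% of the PiZ mean CPM of Psmc3ip, above the 2.69 and 4.92% of libraries 1 and 2. For Tmprss4 they held 8.60 and 7.27%, between the 9.93 and 3.98% of libraries 1 and 2.

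Vmn2r3, Sprr1a, Wfdc3 and Tinag showed another pattern within the PiZ p50KO group. Vmn2r3 had 0, 0, 8, 61 and 73 reads in libraries labelled PiZ p50KO 1 to 5 and changed by -6.53 ± 1.12 log2 relative to PiZ (SE, limma adjusted p = 0.000321). Sprr1a had 7, 0, 20, 200 and 149 reads and changed by -5.86 ± 1.14 log2 (SE, limma adjusted p = 0.000960). Tinag had 0, 4, 16, 56 and 48 reads and changed by -5.23 ± 0.95 log2 (SE, limma adjusted p = 0.000566). In all 3 genes libraries 1 and 2 were at or near 0, library 3 was in between, and libraries 4 and 5 held 8.93 to 16% of the PiZ mean CPM. Wfdc3 had 0, 0, 12, 106 and 93 reads, so that libraries 4 and 5 kept 36.3 and 35.9% of the PiZ mean CPM. Its log2 fold change was -4.94 ± 1.24 (SE, limma adjusted p = 0.00646), and the call was lost without libraries 1 and 2 (-2.29, limma adjusted p = 0.0840) and with WT PBS 2 kept in the fit (limma adjusted p = 0.0933). Fitted changes of genes with libraries at 0 depend on the small number the authors added before the log.

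Akr1b7 did not reach the filter. It had 12, 2, 10, 23 and 44 reads in the libraries labelled PiZ p50KO, against 27 to 68 reads in PiZ, and the groups overlapped. Fitted without a filter its change was -1.87 ± 0.90 log2 (SE, limma adjusted p = 0.238); with 1 CPM added before the log it was -0.56 and passed (limma adjusted p = 0.00995). Without the libraries labelled PiZ p50KO 1 and 2, Vmn2r3, Sprr1a, Tinag, Psmc3ip and Tmprss4 were still called lower, with log2 fold changes of -4.10, -3.64, -3.37, -4.84 and -4.78, and 9.62% of all genes tested were called lower. Over all genes the calls were 447 higher and 2866 lower, and 1307 higher and 1210 lower after shifting all libraries to the same median; the same 6 genes were called lower under both.

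**Figure D2:**
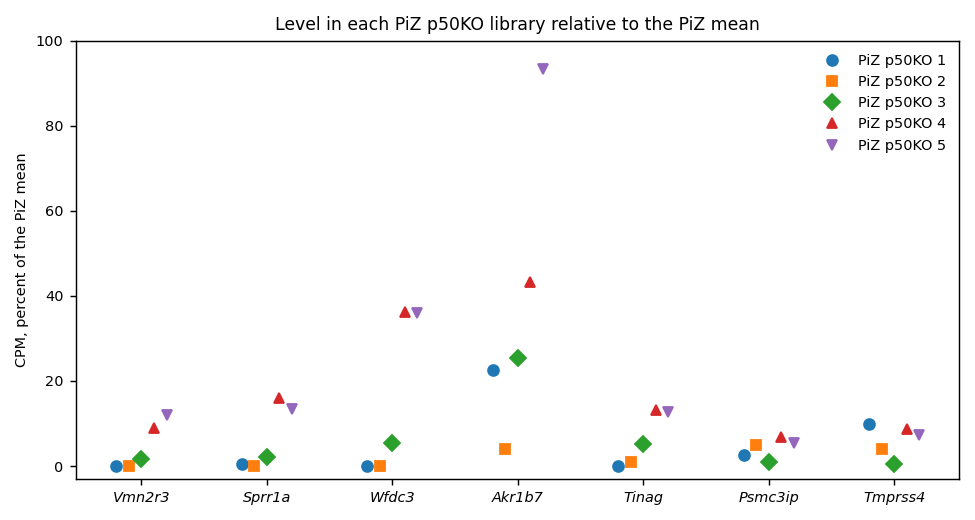
CPM of each gene in each library labelled PiZ p50KO, as a percent of the mean CPM of the 5 PiZ libraries. Psmc3ip and Tmprss4 stay at or below 9.93% in every library, whereas Wfdc3 reaches 36.3% and Akr1b7 93.4% in single libraries.

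Set against WT PBS, 1 gene was called higher in the PiZ p50KO group. Near absence from WT PBS was part of the choice, which favours higher values in any other group, so the p-values of this contrast are descriptions too. Vmn2r3, with no read in WT PBS, was called higher in PiZ p50KO by 3.65 ± 1.12 log2 (SE, limma adjusted p = 0.0387); 10.5% of all genes tested were called higher and 1.14% lower, and 6.08% and 0.557% did not overlap in those directions. This call was lost with WT PBS 2 kept (1.85, limma adjusted p = 0.878), with no filter (3.65, limma adjusted p = 0.0665) and with libraries shifted to the same median (3.42, limma adjusted p = 0.0609). It was also lost with 1 CPM added before the log (0.55, limma adjusted p = 0.104), after quantile normalization (2.36, limma adjusted p = 0.168) and under a stricter filter (limma adjusted p = 0.183). The same held without any 1 of libraries labelled PiZ p50KO 3, 4 or 5 (limma adjusted p = 0.0625, 0.119 and 0.116) or any 1 WT PBS library. Wfdc3 differed by 2.89 ± 1.24, Tinag by 2.69 ± 0.95, Sprr1a by 1.98 ± 1.14 and Tmprss4 by 1.18 ± 0.69 log2, none of which passed (limma adjusted p = 0.128, 0.0691, 0.266 and 0.276). Each of the 4 passed without 1 library: Wfdc3 without the one labelled PiZ p50KO 1 or 2, Tinag without 1, Sprr1a without 2 and Tmprss4 without 3 (limma adjusted p = 0.0280, 0.0343, 0.00273, 0.0197 and 0.0318). Under library weights, with WT PBS 2 kept, Wfdc3, Tinag, Sprr1a and Tmprss4 were called higher at 5.65, 3.64, 4.64 and 2.10 log2, and Tinag passed with 1 CPM added before the log (limma adjusted p = 0.0496). Psmc3ip was at -0.66 ± 0.72 log2 (limma adjusted p = 0.595).

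With the libraries labelled PiZ p50KO 1 and 2 left out, a choice made after seeing that they were low, 4 of the genes were called higher than in WT PBS, where 15.5% of all genes tested were. The log2 fold changes were then 6.08 for Vmn2r3, 5.55 for Wfdc3, 4.54 for Tinag and 4.20 for Sprr1a (limma adjusted p = 4.47e-06, 0.000116, 0.000100 and 0.00122). Psmc3ip stood at -0.72 and Tmprss4 at 0.79 log2 (limma adjusted p = 0.635 and 0.564). Whether the 2 sets of genes differ from each other in this was not tested.

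TNFa at 2 h went with higher NF-kB targets, with 15 of 15 listed genes called higher, Cxcl10, a chemokine, by 9.44 ± 0.74 log2 (SE, limma adjusted p = 2.47e-07). None of the 7 genes was called higher, a count near the background of all genes. Of all genes tested 7.63% were called higher and 4.05% lower after TNFa, and 3.94% and 1.31% did not overlap in those directions; none of the 7 genes was free of overlap. Psmc3ip was called lower: it had 0, 3 and 10 reads as the lowest, median and highest of 6 TNFa libraries, against 22, 10, 12, 10 and 24 reads in WT PBS. Its log2 fold change was -2.64 ± 0.69 (SE, limma adjusted p = 0.0137), and the ranges overlapped by 1 TNFa library; without WT TNFa 4 it was -2.88 (limma adjusted p = 0.00649). Psmc3ip was admitted to the test by its PiZ libraries, and its WT PBS values took part in the choice of the genes. The call was lost with 1 CPM added before the log (-0.30, limma adjusted p = 0.0835), since all values are below 1 CPM.

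Vmn2r3 had 2 reads in WT TNFa 3 and none in the other 5 TNFa libraries. Sprr1a had 0 to 14 reads after TNFa, with a median of 3, and Wfdc3 0 to 2 with a median of 1.5. Tinag had 2 to 6 reads with a median of 5, Tmprss4 2 to 19 with a median of 12, and Akr1b7 0 to 12 with a median of 7. These ranges all overlapped those of WT PBS, and the log2 fold changes of these 6 genes ran from -0.51 ± 1.09 for Sprr1a to 1.64 ± 0.91 for Tinag (SE, limma adjusted p = 0.871 and 0.318).

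**Figure D3:**
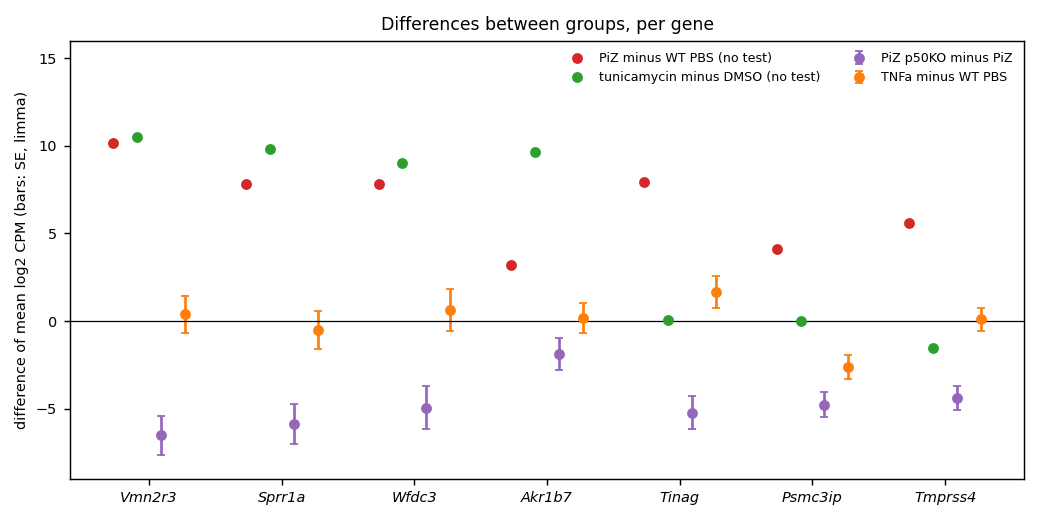
Difference of mean log2 CPM for each gene between PiZ and WT PBS, tunicamycin and DMSO, PiZ p50KO and PiZ, and TNFa and WT PBS; bars are standard errors from limma and are given only where a test was made. Vmn2r3, Sprr1a, Wfdc3 and Akr1b7 are high in both contrasts that chose the genes, and Tinag, Psmc3ip and Tmprss4 in PiZ alone, at 0.08, -0.02 and -1.56 after tunicamycin.

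After tunicamycin 4 of the 7 genes were above every DMSO library, as 28.5% of all 13388 genes tested were, with 4.76% below every DMSO library. This contrast took part in the choice of the 7 genes, so nothing is read from their count. Tinag, Psmc3ip and Tmprss4 are not among the 13388 genes. The median of all genes tested was 0.38 log2 higher. Vmn2r3 had 1046, 1166.5 and 1528 reads as the lowest, median and highest of the 6 tunicamycin libraries, against 0, 0 and 2 reads in the 6 DMSO libraries. Its mean was 28.3 ± 4.76 CPM after tunicamycin and 0.0140 ± 0.0236 CPM in DMSO (SD, n = 6 each). Akr1b7 had 460, 6601.5 and 13426 reads after tunicamycin, against 2, 4 and 7 in DMSO. Wfdc3 had 75, 2794 and 12149 reads after tunicamycin, against 2, 2.5 and 4 in DMSO. Sprr1a had 125, 3480 and 9462 reads after tunicamycin, against 0, 2 and 14 in DMSO. No tunicamycin library of these 4 genes reached down to a DMSO library, and the log2 differences of means ran from 9.01 for Wfdc3 to 10.50 for Vmn2r3.

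Tinag had 0 to 8 reads in both groups, with medians of 2 after tunicamycin and 1 in DMSO. Psmc3ip had 12 to 24 reads after tunicamycin, with a median of 18, and 7 to 36 in DMSO, with a median of 13. Tmprss4 had 2 to 16 reads after tunicamycin, with a median of 9, and 10 to 31 in DMSO, with a median of 18.5. The groups overlapped for these 3 genes, and none of them reached the filter.

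**Figure D4:**
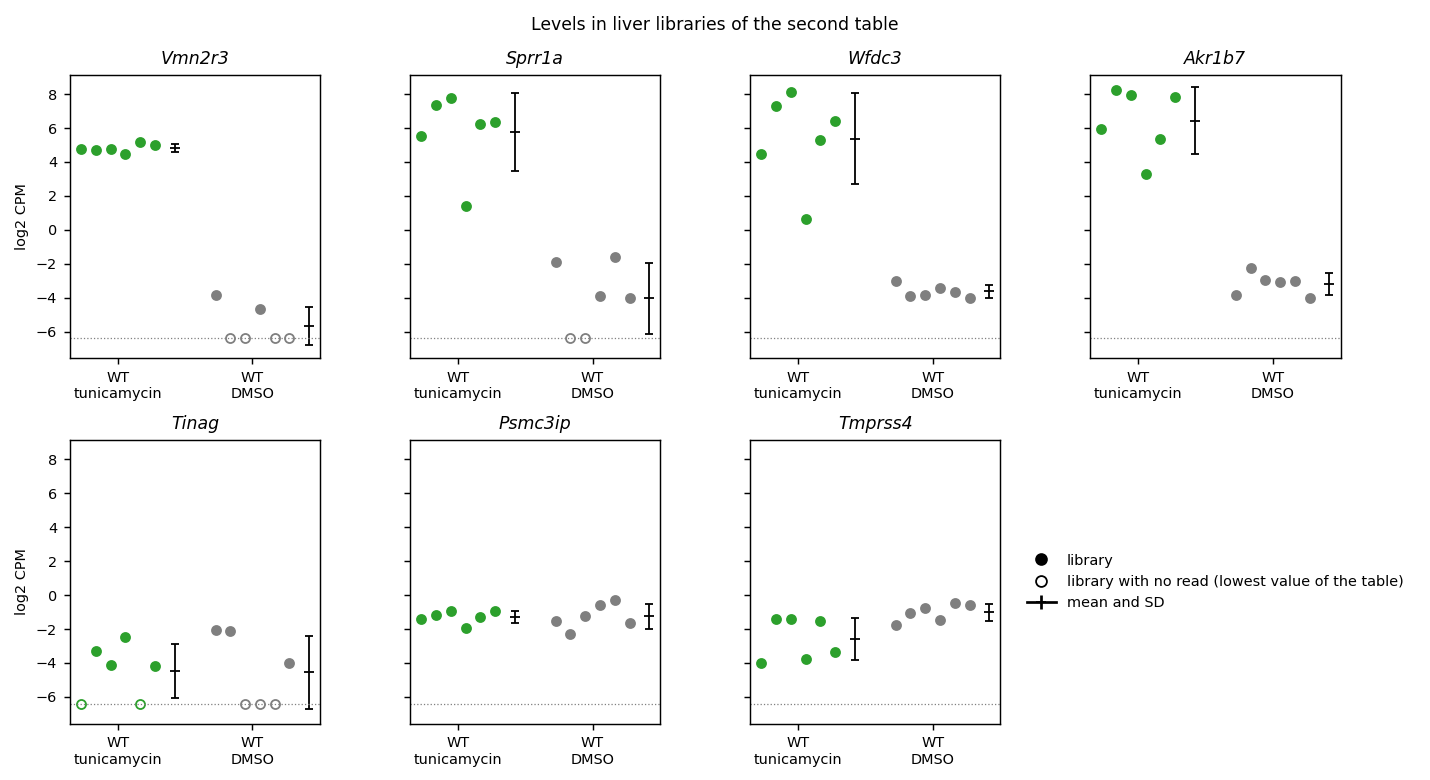
Level of each gene in each library of the second table, in log2 CPM, with mean and SD beside each group; open circles are libraries with no read, on the dotted line at -6.40. The tunicamycin libraries are tight for Vmn2r3, from 4.48 to 5.17, and wide for Sprr1a, Wfdc3 and Akr1b7, all lowest in the same library at 1.39, 0.66 and 3.27.

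The 4 genes differed in how evenly the tunicamycin libraries expressed them. The highest library exceeded the lowest 1.62-fold in CPM for Vmn2r3, 31.8-fold for Akr1b7, 82.9-fold for Sprr1a and 177-fold for Wfdc3. Of the tunicamycin columns, 3 could be matched to the group and not to a numbered sample, and are called unnumbered a, b and c. Unnumbered a was lowest in Sprr1a (1.39 log2 CPM), Wfdc3 (0.66) and Akr1b7 (3.27), and also in the stress factor genes Atf3 (5.70), Ddit3 (5.22) and Trib3 (5.36), and had the highest Alb of the 6 (15.63). The libraries with the highest Akr1b7, WT tunicamycin 5, WT tunicamycin 6 and unnumbered c at 8.26, 7.95 and 7.86 log2 CPM, had the lowest Alb, 14.55, 14.09 and 14.41, and the highest Atf3, 11.06, 11.30 and 10.94. Vmn2r3 was also lowest in unnumbered a, at 4.48 log2 CPM, but within a narrow range, at 4.71, 4.76 and 4.98 log2 CPM in those 3 libraries and highest in unnumbered b at 5.17. The part of stress intensity or of hepatocyte RNA in these differences was not tested.

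**Figure D5:**
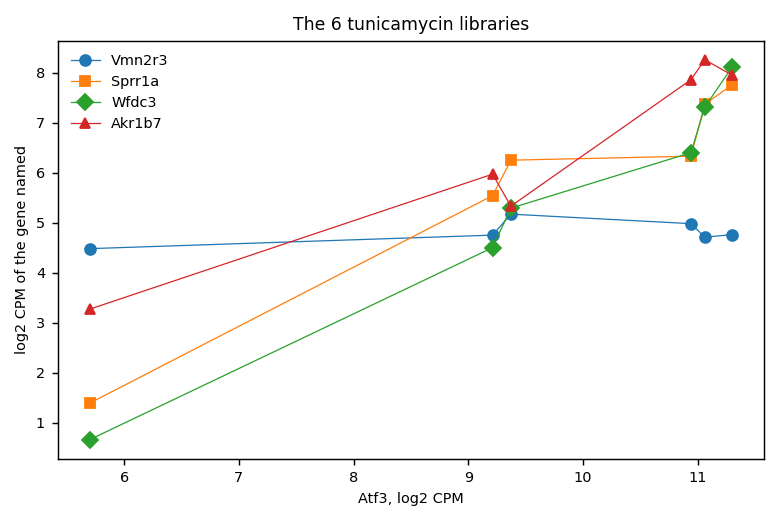
Log2 CPM of Vmn2r3, Sprr1a, Wfdc3 and Akr1b7 against log2 CPM of Atf3 in the 6 tunicamycin libraries, 1 point per library and gene, joined in order of Atf3. All 4 genes are lowest where Atf3 is lowest (5.70), Vmn2r3 within a range of 4.48 to 5.17 over the 6 libraries.

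Likeness of pattern was measured as the root mean square difference of log2 CPM, each gene less its own mean, over all libraries of a table. Over the 12 libraries of the second table Atf3 was the nearest of all genes tested to Akr1b7 (0.61), to Wfdc3 (0.68) and to Sprr1a (1.26), while the nearest to Vmn2r3 was Cox6a2 (1.51), a cytochrome c oxidase subunit of heart and muscle. Over 21 libraries of the first table Ly6d, a surface protein of lymphoid and epithelial cells, was nearest to Sprr1a (1.33) and Wfdc3 (0.88) and among the nearest 3 of Vmn2r3 (1.38) and Tinag (1.25). Nearest to Vmn2r3 there was Pirt (1.04), to Tinag Serpina3f (1.23), to Akr1b7 Atp8b5 (0.98), to Psmc3ip Gspt2 (0.77) and to Tmprss4 Mtmr11 (1.09). These distances share libraries and depth and are descriptions. They take in the differences between the groups on which the 7 genes were chosen, so a gene with a rise of like size ranks near. Atf3 rose by 9.50 log2 after tunicamycin, beside 9.63 for Akr1b7, 9.01 for Wfdc3 and 9.81 for Sprr1a. Shared control was not tested.

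Relatives of the 7 genes were described by lists, most of whose members were too low to test in the receptor, cornified envelope, inhibitor, meiosis and protease lists. Of 124 other Vmn2r receptors only Vmn2r20 was abundant enough to test, and it was called higher in PiZ by 1.25 ± 0.48 log2 (SE, limma adjusted p = 0.0334), where 45.6% of all genes tested were called higher and 6.19% lower; with WT PBS 2 kept it was not. Of 32 other genes of the small proline-rich family and the cornified envelope found in the files 2 could be tested in the first table, and Ppl, which encodes periplakin, was higher in PiZ by 2.84 ± 0.37 log2 (SE, limma adjusted p = 3.62e-06). After tunicamycin Tgm1, a transglutaminase of the cornified envelope, fell by 3.26 log2 (limma adjusted p = 1.52e-05), the 1 call among 3 tested.

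Among 22 other genes of the whey acidic protein domain and related inhibitors, 8 could be tested in the first table and 6 were higher in PiZ, 4 with WT PBS 2 kept. Wfdc16 rose by 9.04 ± 1.00 log2 and Spink1, a trypsin inhibitor, by 8.39 ± 1.45 (SE, limma adjusted p = 5.03e-07 and 7.56e-05). Both were lower in PiZ p50KO than in PiZ, with log2 fold changes of -4.58 ± 1.00 and -4.50 ± 1.45 (SE, limma adjusted p = 0.00244 and 0.0284). They were among 3 of 8 called lower, and 1 of 8 was called higher, beside 21.6% and 3.36% of all genes tested. Without the libraries labelled PiZ p50KO 1 and 2, 1 of 8 was called lower, beside 9.62% of all genes tested, and 0 higher. Spink1 is also a pancreas gene, and the 6 pancreas markers, listed as other cells a sample could hold, summed to 18.6 to 864 CPM in PiZ p50KO, 19.6 to 86.1 CPM in PiZ and 15.8 to 23.1 CPM in WT PBS; their part was not tested. The same list summed to 17.1 to 2820 CPM after TNFa, and to 10.5 to 900 CPM after tunicamycin against 10 to 26.8 CPM in DMSO. Of 13 other aldo-keto reductases tested, 4 were higher and 3 lower in PiZ. In PiZ p50KO against PiZ, 2 of the 13 were higher and 2 lower, with Akr1c19 higher by 1.35 ± 0.15 log2 (SE, limma adjusted p = 4.21e-06). Akr1b3, the aldose reductase, rose by 3.44 ± 0.22 log2 in PiZ (SE, limma adjusted p = 8.95e-10), was lower in PiZ p50KO than in PiZ at -3.07 ± 0.22 (SE, limma adjusted p = 7.18e-09) and rose by 2.17 ± 0.31 after tunicamycin (SE, limma adjusted p = 0.000102). After tunicamycin 2 of the 13 were higher and 7 lower, beside 45.3% of all genes tested that were higher and 13.5% that were lower.

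Of 13 basement membrane genes and kin of Tinag that could be tested, 12 were higher in PiZ, for example the laminin chain Lama2 by 2.94 ± 0.30 and nidogen Nid1 by 2.42 ± 0.24 log2 (SE, limma adjusted p = 1.59e-07 for both), and 6 with WT PBS 2 kept. In PiZ p50KO 8 of the 13 were lower than in PiZ, and 7 without the libraries labelled PiZ p50KO 1 and 2; after tunicamycin 0 were higher and 3 lower by limma. Of 7 genes of meiosis and homologous recombination tested, 3 were higher and 1 lower in PiZ by limma. With WT PBS 2 kept none of 8 was higher and 1 was lower. Of 4 other membrane serine proteases tested 2 were higher in PiZ and lower in PiZ p50KO than in PiZ, St14, or matriptase, at 2.89 ± 0.38 and -1.95 ± 0.38 log2 (SE, limma adjusted p = 3.65e-06 and 0.000991). Beside these lists, 45.6% of all genes tested were called higher in PiZ and 6.19% lower, and 21.6% lower in PiZ p50KO than in PiZ. After tunicamycin the shares were 45.3% higher and 13.5% lower. The meiosis and protease counts of genes higher in PiZ are near that share, so nothing is read from them.

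Stress and NF-kB genes framed the 3 settings. Of 17 listed ER stress genes 12 were higher in PiZ, and 15 of 16 tested were higher after tunicamycin, with medians of 1.27 and 3.79 log2 beside 0.40 and 0.38 for all genes tested. Of all genes tested, 45.6% were called higher in PiZ, and 45.3% higher and 13.5% lower after tunicamycin. In PiZ p50KO 21.6% were called lower than in PiZ, and 9.62% without the libraries labelled PiZ p50KO 1 and 2. In PiZ p50KO 5 of the 17 were lower than in PiZ, Atf3 at -3.04 ± 0.90 log2 (SE, limma adjusted p = 0.0182), and 1 was without the libraries labelled PiZ p50KO 1 and 2. Of 15 listed NF-kB targets 13 were higher in PiZ, 3 of 12 tested were higher and 1 lower after tunicamycin, and 5 of 15 were lower in PiZ p50KO than in PiZ. Lcn2, which binds iron siderophores, was among these 5 at -3.53 ± 0.61 log2 (SE, limma adjusted p = 0.000352). Without the libraries labelled PiZ p50KO 1 and 2, 1 of the 15 was lower and 1 higher. With WT PBS 2 kept, the genes lower in PiZ p50KO than in PiZ numbered 1 of the ER stress list, 1 of the NF-kB list, 2 of the basement membrane list and none of the inhibitor or protease lists.

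Markers of keratinocytes, kidney tubule and germ cells were each far lower in sum than in WT PBS 2 (219, 183 and 82.1 CPM). The list of vomeronasal and olfactory neuron genes, at 214 CPM in WT PBS 2, was not. The steroid gland list, at 66.4 CPM in WT PBS 2, was far lower in PiZ, while its highest tunicamycin library reached 112 CPM. The 6 keratinocyte markers summed to 0.325 to 1.49 CPM in PiZ and 0.361 to 3.93 CPM in WT PBS, and to 1.42 to 3.85 CPM after tunicamycin and 1.09 to 2.44 CPM in DMSO. The 6 kidney tubule markers summed to at most 0.874 CPM in PiZ and 0.264 CPM in WT PBS, with no read of Umod or Kap in either group. The 6 germ cell markers summed to at most 0.494 CPM in PiZ and 0.278 CPM in WT PBS. Trpc2, the ion channel of vomeronasal neurons, had no read in the PiZ, WT PBS, tunicamycin or DMSO groups. The list it belongs to (Omp, Trpc2, Gnao1, Gnai2 and Cnga2) summed to 187 to 231 CPM in PiZ and 101 to 127 CPM in WT PBS. The sum does not show which of these genes carried it. The 5 steroid gland markers summed to 1.61 to 2.68 CPM in PiZ and 10.3 to 46.8 CPM in WT PBS, and to 10.6 to 112 CPM after tunicamycin and 7.26 to 14.4 CPM in DMSO.

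Markers of other liver cells moved with the PiZ contrast. The 6 cholangiocyte and ductular markers summed to 28.4 to 74.1 CPM in PiZ p50KO, 82.9 to 126 CPM in PiZ and 23.4 to 27.0 CPM in WT PBS. The 5 macrophage markers summed to 134 to 362 CPM in PiZ p50KO, 521 to 669 CPM in PiZ and 77.3 to 95.0 CPM in WT PBS. After tunicamycin neither list stood above DMSO, with 25.4 to 39.1 CPM of the cholangiocyte list against 28.4 to 71.6 CPM in DMSO and 98.8 to 144 CPM of the macrophage list against 107 to 335 CPM in DMSO. Their part in the levels of the 7 genes was not tested. The 8 hepatocyte markers summed to 65600 to 93700 CPM in PiZ and 94000 to 120000 CPM in WT PBS, and to 24600 to 68900 CPM after tunicamycin and 90600 to 116000 CPM in DMSO. Near Wfdc3, Dnttip1 averaged 5.26 log2 CPM after tunicamycin and 2.94 log2 CPM in DMSO, and Gm13857, the pseudogene overlapping Akr1b7, had 114 reads after tunicamycin and 0 in DMSO.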

How the data were processed

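RNA from mouse liver was sequenced by the submitters. The values deposited by the authors are moderated log2 CPM (log2 of a gene's reads per M reads, with a small prior count), in 1 table of 22 and 1 of 12 libraries. The submitters' processing notes name bcl2fastq, DRAGEN, STAR, Subread featureCounts, edgeR and GRCm38; settings are not given in the sources used here. Each table has 55774 lines, of which 287 are identical repeats of a gene and were dropped. Whole reads were recovered from the log2 values (100% of those checked were within 0.1 of a whole number), which gives 10.2 to 54.0 M reads in the first table and 34.3 to 47.8 M in the second. Of genes with 2 to 20 reads, 76.4 to 82.7% had an even number except in WT PBS 2 (58.2%). Reads are therefore not independent fragments. A bound from 3 reads assumes independent reads, so it is too low here and does not fully cover counting error.

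Groups come from the sample titles. The filter kept genes over 0 log2 CPM (1 CPM) in 5 or more libraries (first table) and in 6 or more (second table). They were tested two-sided with limma 3.58.1 under R 4.3.3 (lmFit, then trended eBayes), all groups of a table in 1 fit without WT PBS 2, Benjamini-Hochberg adjusted over the 13285 or 13388 genes tested, at 0.05; no count test was run, since the deposited unit is a log2 value. The script was tested on simulated data. Figures and sums used Python 3.11.15 with pandas 2.3.3 and matplotlib 3.10.9. Members, gene lists, motifs and the rule for named genes were chosen with earlier results of these data known. The rule names the 7 genes, up to 3 genes per list with the greatest change, the 3 genes most alike each gene, and neighbours; a few of these stand in the text. Sequences are from RefSeq (GRCm38.p6; 6 of the 7 genes matched) and gene positions and shared 50-base stretches from GENCODE M21 (GRCm38). Replicate numbers did not pair libraries (correlations of deviations -0.23 to 0.13). Alternatives were WT PBS 2 kept, 1 CPM added, no or a stricter filter (above 2 log2 CPM), median shift, quantile normalization, library weights, 2 groups alone, the replicate block and each library left out; leaving out the libraries labelled PiZ p50KO 1 and 2, or those and WT TNFa 4, was chosen after seeing the data.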

Additional observations from a re-analysis of the deposited data

Results flagged for a closer look

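A gap rule flags about 1 in 20 groups of normally spread values by chance. Groups with libraries at the floor are not normally spread, so no excess over chance is read from the count. By this rule a library far from the others of its group was found in 10 of 42 groups of values checked. WT PBS 2 accounts for 6 of them, with Vmn2r3 at 4.29, Sprr1a at 2.76, Wfdc3 at 2.46, Tinag at 3.39, Psmc3ip at 4.44 and Tmprss4 at 3.83 log2 CPM, each far above the other WT PBS libraries; Akr1b7 was also high there, at 3.66. Sprr1a was far below the other tunicamycin libraries in unnumbered a, at 1.39 log2 CPM where the others had 5.54 to 7.76. Tmprss4 was low in PiZ 4, at 1.86 log2 CPM where the other PiZ libraries had 3.42 to 4.01. Vmn2r3 stood at -4.23 log2 CPM in WT TNFa 3, which is 2 reads where the other TNFa libraries had none. Akr1b7 stood at -6.52 log2 CPM in WT TNFa 1, which is 0 reads where the others had -2.86 to -1.89 log2 CPM.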

How the results depend on the processing

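TNFa gave 1551 called genes, PiZ p50KO gave 3313 against PiZ, and it gave 1550 against WT PBS. With WT PBS 2 kept they were 547, 468 and 12, and with library weights, whose estimation stopped before converging, 3079, 4847 and 5749. For PiZ p50KO against WT PBS they were 819 without a filter, 1000 after the median shift, 595 after quantile normalization and 225 with only the 2 groups fitted, where PiZ p50KO against PiZ gave 2180. The replicate block gave 1323, 2947 and 795; among the 7 genes it ended the Vmn2r3 call against WT PBS (3.88, limma adjusted p = 0.0584) and no other, and libraries share only a number. Without the libraries labelled PiZ p50KO 1 and 2 the counts were 1765, 1479 and 2427, and without WT TNFa 4 too, 2382, 1675 and 2626. Leaving out 1 library gave 1165 to 2095 for TNFa, highest without WT TNFa 4, 2197 to 3770 for PiZ p50KO against PiZ, lowest without the library labelled PiZ p50KO 1, and 703 to 2113 for PiZ p50KO against WT PBS, with the low counts without PiZ p50KO 4 or 5 or WT PBS 4, 5 or 6. Median shift and quantile normalization turned the split of that comparison to 425 higher and 575 lower and to 299 and 296, from 1398 and 152; for TNFa the median shift gave 986 higher and 821 lower, beside 1013 and 538.

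For the 7 genes, PiZ p50KO against PiZ kept its direction throughout, and the calls of Vmn2r3, Sprr1a, Tinag, Psmc3ip and Tmprss4 held under every alternative in which they were tested. Psmc3ip was not tested without any 1 PiZ library, nor Tmprss4 under the stricter filter. The choice of the genes by their PiZ values favours lower values in PiZ p50KO under every setting, so the calls that held are descriptions. Uncalled TNFa values changed sign. With WT PBS 2 kept, Vmn2r3 was -1.42, Wfdc3 -0.66, Akr1b7 -0.96 and Tmprss4 -0.91. After quantile normalization Vmn2r3 was -0.08, Wfdc3 -0.00209 and Tmprss4 -0.10. Without 1 library Sprr1a ranged from -0.93 to 0.04, Akr1b7 from -0.65 to 0.88 and Tmprss4 from -0.17 to 0.48, with -0.03 for Akr1b7 and -0.12 for Tmprss4 without WT TNFa 4 and the libraries labelled PiZ p50KO 1 and 2. The cause was not tested. Single reads decide values near the lowest of each table, which limits what TNFa can show.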
